A study of Drosophila melanogaster with 9 samples.

Results

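The genes followed here are 10 of the contractile apparatus of muscle, in whole larvae of the last instar of the *yw* strain of *Drosophila melanogaster*: *Act57B*, *Act87E*, *Act79B*, *Mhc*, *Mlc2*, *Tm2*, *up*, *wupA*, *sls* and *Mlp60A*. They were chosen by name, as known muscle genes, and every probe set annotated with 1 of the 10 symbols was taken. The annotation used here gave 11 probe sets for 7 of the 10 genes, out of 18769 probe sets tested in the series, and it listed none of the 11 for another gene as well. *Act57B*, *Mhc* and *wupA* were not analysed here. RNA had been hybridised to 9 Affymetrix Drosophila Genome 2.0 arrays, 3 of them with larvae that had been pinched with forceps 4 h earlier, 3 with larvae pricked 4 h earlier with a tungsten needle (clean injury) and 3 with untreated larvae. All larvae carried the *y* and *w* marker mutations. The labels give no holding time for untreated larvae, so injury and the time since handling cannot be told apart. The comparison asks whether muscle transcripts changed after the body wall had been squeezed, after it had been pierced, and differently after these injuries.

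Body wall muscle of the larva contracts when myosin heads of the thick filament pull on actin of the thin filament. Tropomyosin and the troponins on the thin filament hold myosin off the actin until calcium arrives, and the filaments are anchored at the Z-disc, where titin-like and LIM domain proteins sit. Larval body wall muscles lie just under the epidermis. In RNA of whole larvae, fewer muscle cells and less RNA per muscle cell cannot be told apart.

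The values are log2 signals, 1 per probe set and array, and only differences of the same probe set between arrays were read. The test was limma, a linear model fitted to all 18769 probe sets and 9 arrays, and a change counts as called where its adjusted p (Benjamini-Hochberg) is under 0.05. With 3 arrays a group the precision was limited. The p-values measure the spread between arrays that the labels call biological replicates, without saying how larvae were divided among them. A gene with several probe sets was represented by its brightest, and the others were also read. Array medians lay between 4.94 and 5.08. The mean over 31 marker genes of fat body, hemocytes, neurons, gut, epidermis, salivary gland and trachea, with *RpL32* among them, lay between 9.33 and 9.62 on the pinching arrays, between 9.43 and 9.65 on the clean injury arrays and between 9.37 and 9.57 on the untreated arrays. In every group it was lowest on the array numbered 3. This mean pools changes of both signs, with 13 of the 31 genes below 0 after pinching and 15 after clean injury, so it does not show that each tissue was level.

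A single array stood apart. In untreated replicate 1 the control probe sets at the 5′ end of *Act5C*, eIF-4a, GAPDH and actin transcripts were dim relative to those at the 3′ end, with a median difference of -5.96 over 5 control pairs, against -3.70 to -3.32 on the other 8 arrays. Each of the 5 pairs had its lowest difference in this array. Within the other groups the *Act5C* and actin pairs were also lowest on the array numbered 1. *Act5C* was at -4.93 on pinching replicate 1 and -4.73 on clean injury replicate 1, against -3.73 to -3.54 on the arrays numbered 2 and 3 of those groups. The eIF-4a pair and a GAPDH pair were not lowest there. On this kind of array the 5′ signal relative to the 3′ signal is read as a sign of RNA length. The part of untreated replicate 1 in the results below was not tested, and calls of named genes that are lost without it are given with the value without it. The replicate numbers also carried information, since deviations from the group means correlated between arrays with the same number (r from 0.189 to 0.548). Fits with the number as a block are given where they change a call of a gene of the muscle apparatus, or as counts.

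**Figure D1:**
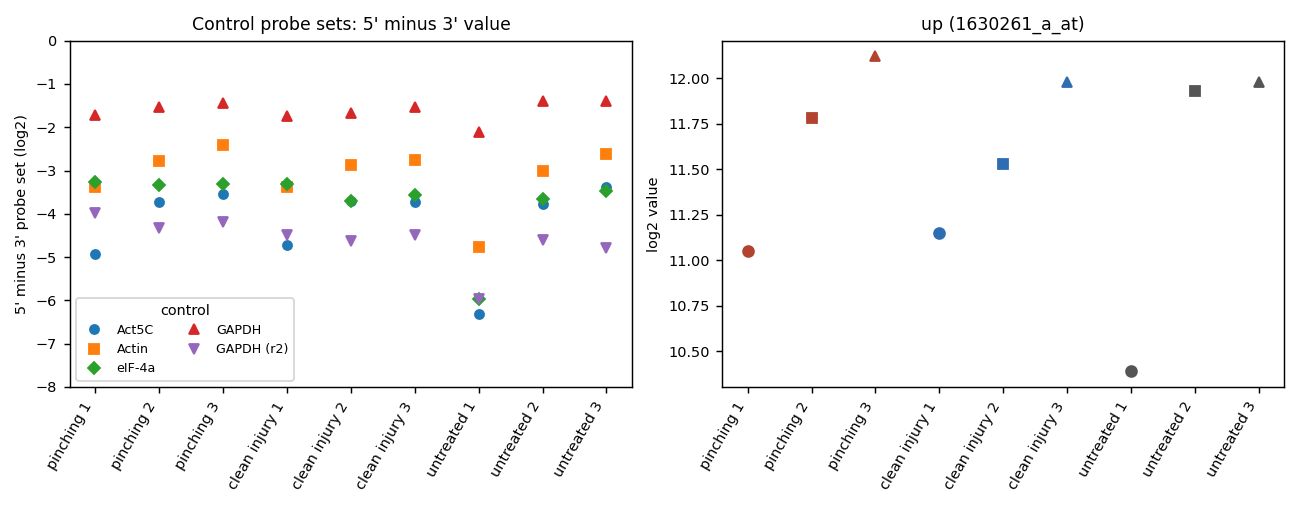
Left, the log2 value of the 5′ control probe set minus that of the 3′ probe set on each of the 9 arrays, 1 symbol per control. Right, the log2 value of *up* on the same arrays. Untreated replicate 1 has the lowest point of every control, and the lowest value of *up*, 10.39.

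After pinching, 0 of the 7 genes were called higher and 1 was called lower, *Act87E*. Over all probe sets 4.21% were called higher and 4.99% lower. Among the 4788 probe sets with a mean above 7, as 6 of the 7 genes have, 12.3% were called lower. After clean injury, 0 of 7 were again called higher and *Act87E* was called lower, against 5.22% higher, 4.93% lower and, above a mean of 7, 11.9% lower. At 14.3% of the genes in each comparison, the share called lower was close to that of bright probe sets. The median log2 change of the 7 genes was -0.26 after pinching and -0.38 after clean injury, beside -0.02 and -0.04 over all probe sets tested. Both comparisons use the same untreated arrays, so their medians are not independent. Without untreated replicate 1 the genes called lower numbered 0 after pinching and 2, *Act87E* and *Mlc2*, after clean injury. Of all 18769 probe sets, that fit called 433 lower after pinching and 412 after clean injury, against 937 and 926 with all arrays.

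*Act87E* encodes an actin of larval muscle. Its probe set (1636348_s_at) read 11.78, 11.73 and 11.98 on the pinching arrays, 11.46, 11.74 and 11.78 on the clean injury arrays and 12.19, 12.26 and 12.39 on the untreated arrays. All 6 arrays of injured larvae lay below all 3 arrays of untreated larvae. Pinched larvae averaged 11.83 ± 0.13, clean-injured larvae 11.66 ± 0.18 and untreated larvae 12.28 ± 0.10 (SD, n = 3 each). The signal was 1.37-fold lower after pinching (log2 change -0.45, SE 0.12, adjusted p = 0.0478 in limma) and 1.53-fold lower after clean injury (-0.62, SE 0.12, adjusted p = 0.0122 in limma). The first call sat at the threshold. When 1 array at a time was left out, it held in 2 of 9 fits, those without clean injury replicate 1 and without pinching replicate 3. Each of the other 7 ended it, with adjusted p up to 0.17. The call after clean injury held in 7 of 9 and was lost without untreated replicate 3 (adjusted p = 0.0608) or clean injury replicate 1 (adjusted p = 0.0524). Without untreated replicate 1 the changes were -0.50 (adjusted p = 0.0855) and -0.66 (adjusted p = 0.0305). The suffix of this probe set marks probes that can match transcripts of more than 1 gene, and actin coding sequences are nearly identical, so the signal of this gene is uncertain. Quantile normalization ended the call after pinching (adjusted p = 0.07), and with the arrays numbered 2 and 3 only neither call held (adjusted p = 0.0953 and 0.0674).

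*Act79B*, an actin of adult muscle, was dim, near the low end of the scale. Its values were 4.33, 4.01 and 4.17 after pinching, 4.16, 4.18 and 4.18 after clean injury and 3.70, 4.24 and 3.72 in untreated larvae. The groups overlapped through untreated replicate 2. The log2 change was 0.29 in both comparisons (adjusted p = 0.296 after pinching and 0.275 after clean injury). Without untreated replicate 2 it was 0.46 (adjusted p = 0.0456) and 0.47 (adjusted p = 0.0426), both past the threshold. No detection call was used here, so it is not known whether these values are above background.

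*Tm2* encodes a muscle tropomyosin, the rod that lies along actin. Its probe set (1641325_s_at) has the same suffix as that of *Act87E*, so it too can match transcripts of more than 1 gene. Its values were 12.51, 12.48 and 12.81 after pinching, 12.35, 12.32 and 12.67 after clean injury and 12.67, 12.73 and 12.79 in untreated larvae. The highest array of all was a pinching array, and both injured groups reached into the untreated range. The log2 changes, -0.13 after pinching (95% interval -0.42 to 0.16) and -0.28 after clean injury (-0.58 to 0.01), missed the threshold (adjusted p = 0.593 and 0.214).

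*up* encodes troponin T, which ties the troponin complex to tropomyosin. It read 11.05, 11.78 and 12.12 after pinching, 11.15, 11.53 and 11.98 after clean injury and 10.39, 11.93 and 11.98 in untreated larvae. The array numbered 1 was the lowest in every group, and by the most in untreated larvae, where replicate 1 lay below all 8 other arrays. The log2 change was 0.21 after pinching (SE 0.42, adjusted p = 0.805) and 0.12 after clean injury (SE 0.42, adjusted p = 0.884). Leaving out untreated replicate 1 turned both signs, to -0.31 and -0.41, neither past the threshold. The part of the low 5′ signal of that array in the value of *up* was not tested.

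**Figure D2:**
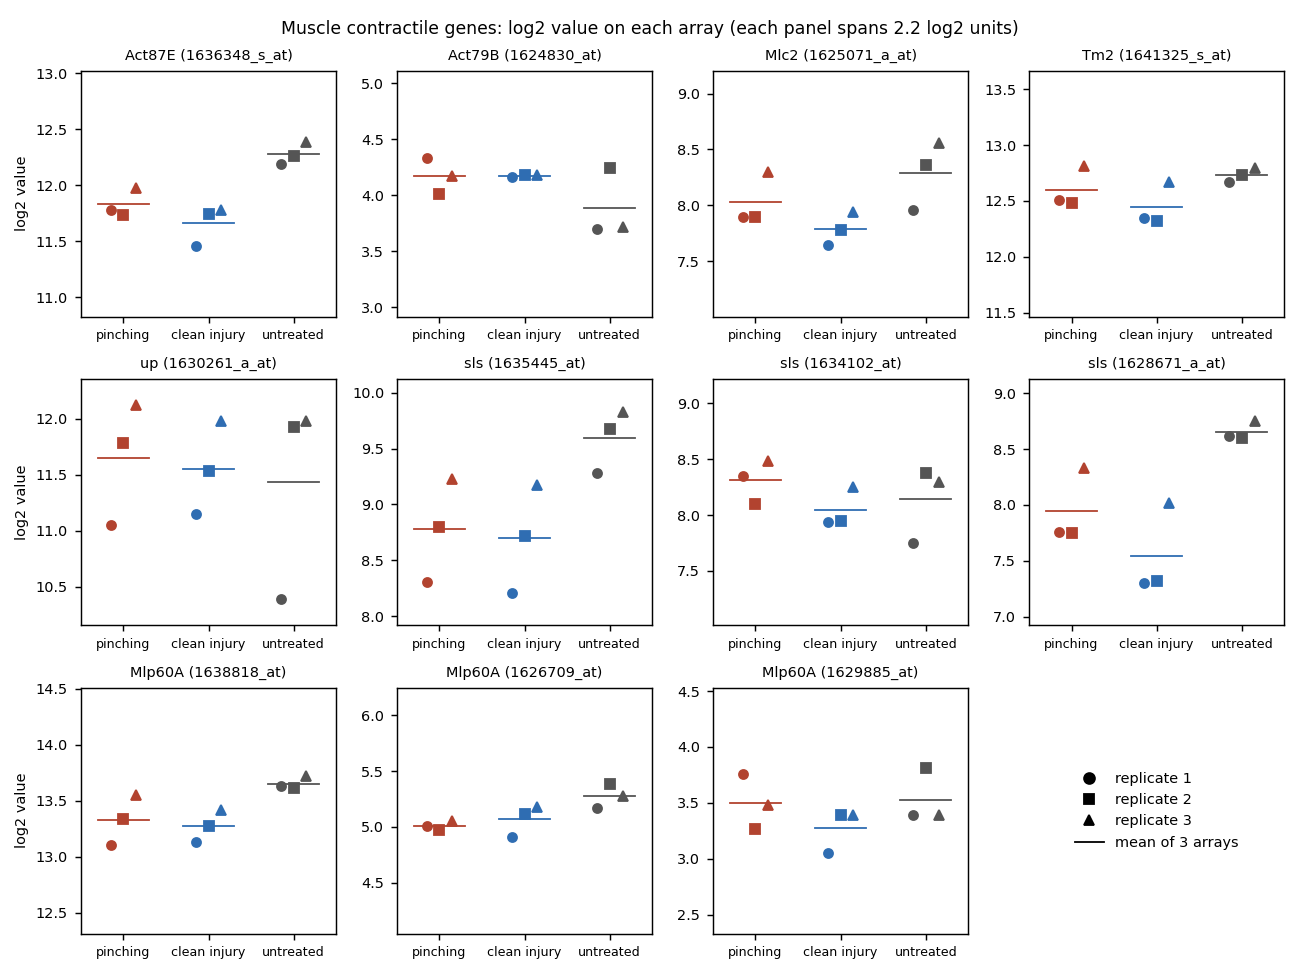
Log2 value of each of the 11 probe sets on every array, in panels that span the same 2.2 log2 units, with pinching, clean injury and untreated from left to right. Symbols mark the replicate number and lines the mean of 3 arrays. *Act87E*, *Mlp60A* (1638818_at) and *sls* at 2 of its 3 probe sets lie lower on all arrays of both injured groups than in untreated larvae, while *Act79B*, *Tm2* and *up* overlap.

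*Mlc2* encodes the regulatory light chain of muscle myosin, and of the 7 genes with a probe set here it is the one of the thick filament. Its values were 7.90, 7.90 and 8.30 after pinching, 7.65, 7.78 and 7.94 after clean injury and 7.96, 8.36 and 8.56 in untreated larvae. The clean injury arrays all lay below the untreated ones, by a narrow margin, whereas the pinching arrays overlapped them. The log2 change was -0.26 after pinching (adjusted p = 0.408) and -0.50 after clean injury (SE 0.17, adjusted p = 0.096). With the replicate number as a block the second reached an adjusted p of 0.0114, and without untreated replicate 1 it was -0.67 (adjusted p = 0.0488). Quantile normalization gave an adjusted p of 0.0496.

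*sls* encodes Sallimus, a giant titin-like protein that links the Z-disc to the thick filament. It was read by 3 probe sets that did not behave alike. The brightest (1635445_at) read 8.31, 8.80 and 9.23 after pinching, 8.21, 8.72 and 9.17 after clean injury and 9.28, 9.67 and 9.83 in untreated larvae. Every array of injured larvae lay below every untreated array, and in each group the array numbered 1 was lowest and the array numbered 3 highest. The log2 change was -0.81 after pinching (SE 0.28, adjusted p = 0.102) and -0.89 after clean injury (SE 0.28, adjusted p = 0.0687), the largest in size among the 7 genes in both comparisons. Neither passed the threshold, but with the replicate block, which takes out the offset between numbers, the adjusted p was 0.000963 and 0.000503. The change after clean injury also passed when clean injury replicate 3 or pinching replicate 1 was left out (adjusted p = 0.0324 and 0.0433), under quantile normalization (0.0396) and with each array centred on its median (0.048).

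A second *sls* probe set (1628671_a_at) read 7.76, 7.75 and 8.33 after pinching, 7.30, 7.32 and 8.02 after clean injury and 8.62, 8.60 and 8.75 in untreated larvae. Both injured groups again lay below the untreated arrays. It was called lower after clean injury, by 2.16-fold (log2 change -1.11, SE 0.21, adjusted p = 0.00934), a call lost only without clean injury replicate 2 (adjusted p = 0.0512) among the 9 fits that left out 1 array. After pinching the change was -0.71 (SE 0.21, adjusted p = 0.0665, and 0.00466 with the block), and of those 9 fits it passed the threshold in the ones without clean injury replicate 3 or pinching replicate 3. The remaining *sls* probe set (1634102_at) read 8.35, 8.10 and 8.48 after pinching, 7.94, 7.95 and 8.25 after clean injury and 7.75, 8.38 and 8.30 in untreated larvae, with changes of 0.17 and -0.10. Over the 9 arrays the first and second probe sets followed each other (Pearson's r = 0.892), whereas the last had r of 0.321 and 0.328 with them. These r describe arrays that share groups and replicate numbers. The sources used here do not say which *sls* transcripts each probe set detects.

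*Mlp60A* encodes a small muscle LIM protein found at the Z-disc of differentiated muscle. Its brightest probe set (1638818_at) read 13.10, 13.34 and 13.55 after pinching, 13.13, 13.27 and 13.42 after clean injury and 13.63, 13.61 and 13.72 in untreated larvae. All injured arrays lay below all untreated ones. The log2 change was -0.32 after pinching (SE 0.13, adjusted p = 0.176) and -0.38 after clean injury (SE 0.13, adjusted p = 0.105, and 0.033 with the block). A dimmer probe set of the gene (1626709_at) had means of 5.01, 5.07 and 5.28 after pinching, after clean injury and in untreated larvae, with changes of -0.27 and -0.21 that were not called. The dimmest (1629885_at), at 3.05 to 3.81 on all arrays, had changes of -0.03 and -0.25.

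Among the 7 genes, 3 (*Act87E*, *sls* and *Mlp60A*) were lower on all pinching arrays than on any untreated array, which is 42.9% of the genes. For all probe sets the share was 14.9%, and for those with a mean above 7 it was 21.3%. After clean injury *Mlc2* joined them, making 4 of 7 or 57.1%, against 19.1% of all probe sets and 23.9% of bright ones. None of the 7 lay wholly above the untreated arrays, beside 12.7% of all probe sets after pinching and 15.4% after clean injury. In both comparisons 5 of the 7 had a log2 change below 0, where 54.4% and 55.5% of all probe sets did. At an unadjusted p under 0.05 the same 3 and the same 4 genes were lower and 0 were higher, where 13.2% and 12.8% of all probe sets were lower and 10.2% and 12.2% higher. With 7 genes, nothing particular to muscle is read from these shares.

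With the replicate number as a block, the genes called lower after pinching were 2, *Act87E* and *sls* at its brightest probe set, where 8.76% of all probe sets were called lower. After clean injury they were 4, *Act87E* (adjusted p = 0.0027), *Mlc2*, *sls* and *Mlp60A*, where the share over all probe sets was 8.58%. The share of bright probe sets, which exceeded that of all probe sets without the block, was not taken for the block. Nothing particular to muscle is therefore read from these counts. Differences taken between arrays of the same number gave medians over the 7 genes of -0.16, -0.26 and -0.17 for replicates 1, 2 and 3 after pinching, and -0.32, -0.41 and -0.30 after clean injury. In the pair numbered 2 all 7 genes were below 0 in both comparisons, and in the pair numbered 3 this held for 4 of 7 after pinching and 6 of 7 after clean injury. In the pair numbered 1, which contains the untreated array that stood apart, 5 of 7 were below 0 in both, *Act79B* and *up* being the exceptions.

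**Figure D3:**
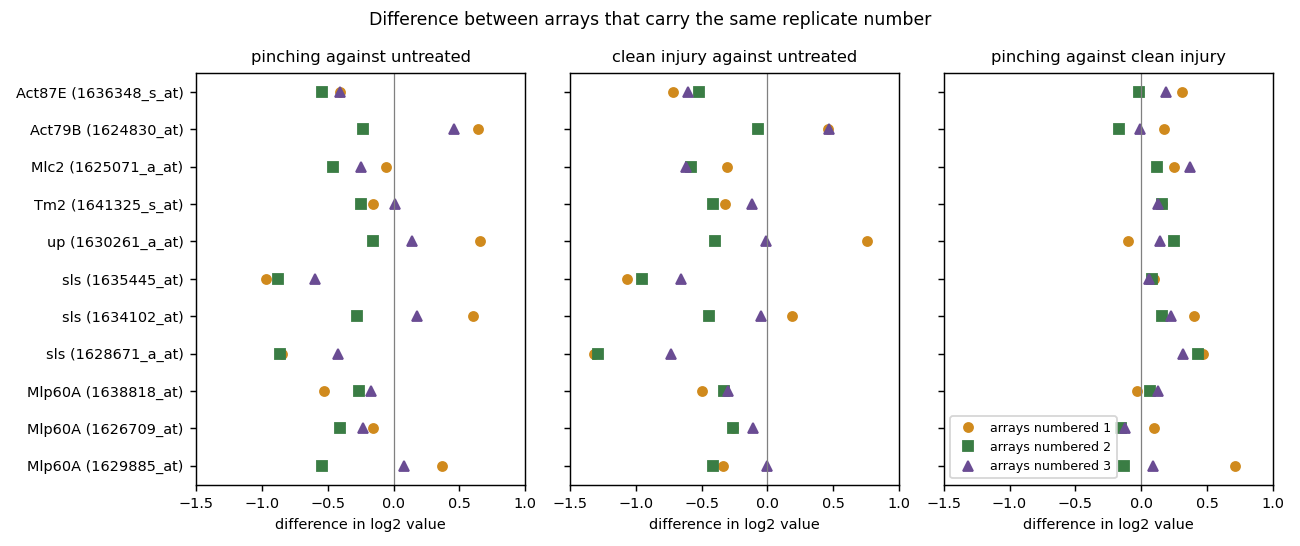
Difference in log2 value between arrays that carry the same replicate number, for each probe set, in pinching against untreated, clean injury against untreated and pinching against clean injury. The brightest *sls* probe set and *Act87E* are below 0 for all 3 numbers in the first 2 panels, while the points of *up* lie on both sides of 0.

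No difference between pinching and clean injury passed the test. Of the 7 genes and 11 probe sets, 0 were called in either direction in limma, 0 had an unadjusted p under 0.05 and 0 had groups that did not overlap (over all probe sets, 2.36% lay wholly higher and 2.83% wholly lower after pinching, and 3.84% of the bright ones wholly lower). The methods' t-test on the same values also gave 0 of 7 at an unadjusted p under 0.05. Over all probe sets 0.57% were higher and 1.09% lower at that level in limma, and 0.98% and 1.13% in the methods' t-test. In the series as a whole 0% of probe sets were called higher and 0.00533% lower after pinching than after clean injury. The median log2 difference of pinching from clean injury was 0.10, and it was 0.16, 0.08 and 0.13 in the pairs numbered 1, 2 and 3. *Act87E* differed by 0.16 (95% interval -0.11 to 0.44), *Mlc2* by 0.25 (-0.14 to 0.63), *Tm2* by 0.15 (-0.14 to 0.45) and *Mlp60A* by 0.06 (-0.24 to 0.35). *Act79B* differed by 0 (-0.34 to 0.34). The intervals were wider for *sls*, at 0.08 (-0.53 to 0.69), and widest for *up*, at 0.10 (-0.83 to 1.03). The second *sls* probe set had the largest difference, 0.40 (-0.07 to 0.87).

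**Figure D4:**
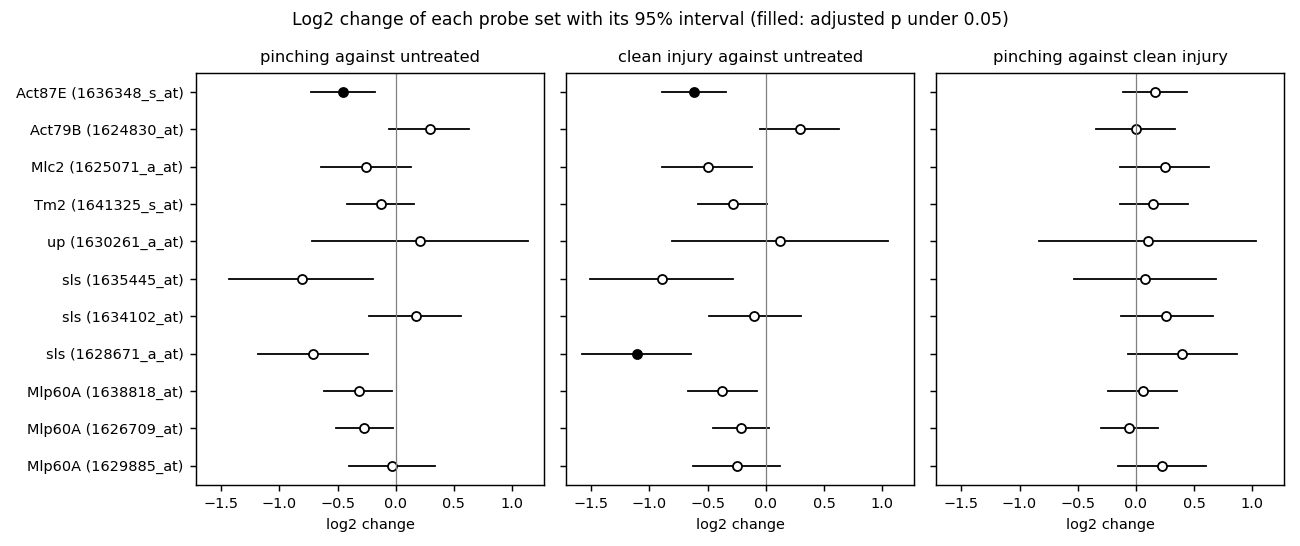
Log2 change of each of the 11 probe sets with its 95% interval from limma, in the same 3 comparisons; filled points have an adjusted p under 0.05. *Act87E* is filled in both comparisons with untreated larvae, the *sls* probe set 1628671_a_at only after clean injury, and no point is filled in pinching against clean injury.

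The 7 genes shared an offset that followed the replicate number. Averaged over the genes after centring each on its mean, the deviation was -0.23, -0.08 and 0.22 on pinching arrays 1, 2 and 3, -0.36, -0.15 and 0.07 on clean injury arrays and -0.12, 0.31 and 0.34 on untreated arrays. The array numbered 1 was lowest and that numbered 3 highest in every group, and the arrays within each group differed by more than the group means did. *Mlc2* followed the mean of the other 6 genes most closely over the 9 arrays (r = 0.913), then *sls* (0.84), *Tm2* (0.825), *Mlp60A* (0.793), *Act87E* (0.72) and *up* (0.462). *Act79B* ran the other way (r = -0.334). Outside the 7 genes, the probe sets most like their mean, among 8332 compared, were those of *CG13085* (r = 0.97), *CG4053* (0.966), *Ssadh* (0.957), *tzn* (0.955) and *arg* (0.952). The same 9 arrays stand behind all these r.

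The rest of the muscle apparatus was read from 52 further genes with a probe set here, of 62 listed, covering other actins and myosins, filament proteins, the Z-disc, calcium handling, attachment to tendon cells, muscle transcription factors and muscle metabolism. After pinching 1 was called higher and 1 lower, and after clean injury 1 higher and 3 lower. The median log2 change was -0.10 and -0.07. That is 1.92% higher and 1.92% lower after pinching and 1.92% higher and 5.77% lower after clean injury, below or near the shares over all probe sets given above. Pinching and clean injury differed at 0 of the 52 genes in limma, with 0 at an unadjusted p under 0.05. Over all probe sets 0.57% were higher and 1.09% lower at that level in limma. The methods' t-test had 1 higher (*cher*) and 1 lower (*stv*) at that level, beside 0.98% and 1.13% of all probe sets. After adjustment it had 0.

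The largest changes of single genes fell in the group listed as calcium handling and excitation, in which *Sclp* was placed. The group as a whole did not move in 1 direction. Its 9 genes had a median log2 change of -0.10 after pinching and -0.01 after clean injury, with 6 and 5 of them below 0. *Sclp* read 9.47, 9.91 and 9.07 after pinching, 9.95, 10.11 and 9.13 after clean injury and 7.84, 7.70 and 7.96 in untreated larvae. It was the gene called higher in both comparisons, by 3.14-fold after pinching (log2 change 1.65, SE 0.26, adjusted p = 0.00387) and 3.73-fold after clean injury (1.90, SE 0.26, adjusted p = 0.00186), and both calls held in all 9 fits that left out 1 array. *RyR*, the ryanodine receptor that releases calcium from the sarcoplasmic reticulum, read 6.73, 6.19 and 7.33 after pinching, 6.36, 6.09 and 7.17 after clean injury and 8.30, 7.43 and 8.10 in untreated larvae. All injured arrays lay below all untreated ones. It fell 2.64-fold after clean injury (log2 change -1.40, SE 0.34, adjusted p = 0.0288), a call that held in 5 of the 9 such fits and was lost without untreated replicate 1 (-1.22, adjusted p = 0.115), without untreated replicate 3, and without clean injury replicate 1 or 2. After pinching the change was -1.19 (adjusted p = 0.0578, and 0.00113 with the block), and of those fits it passed in the ones without untreated replicate 2, clean injury replicate 3 or pinching replicate 3. *SERCA*, the pump that takes calcium back up, had changes of -0.57 and -0.80 that were not called without the block (adjusted p = 0.0651 after clean injury) and were with it (adjusted p = 0.0205 and 0.00348). The change after clean injury also passed without clean injury replicate 3 or pinching replicate 2. These values are of its brightest probe set, which can match more than 1 gene. Its dimmer probe sets, 1641059_at (-0.57 and -0.54) and 1636669_at (-0.96 and -1.11), were likewise called with the block and not without it. Their adjusted p with the block was 0.0128 and 0.015 for the first, and 0.00243 and 0.000952 for the second.

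At the Z-disc, *cher*, a filamin that cross-links actin, read 10.71, 10.64 and 10.64 after pinching, 10.50, 10.47 and 10.55 after clean injury and 11.17, 11.01 and 10.97 in untreated larvae. It was lower in both comparisons, by -0.39 (adjusted p = 0.0361) and -0.54 (adjusted p = 0.00742) on the log2 scale. The call after clean injury held in all 9 fits that left out 1 array and that after pinching in 1, the fit without pinching replicate 1. Without untreated replicate 1 it was -0.32 (adjusted p = 0.124). Quantile normalization also ended the call after pinching (-0.33, adjusted p = 0.0947) and kept that after clean injury (adjusted p = 0.0154). *cher* is also expressed outside muscle, and its probe set can match more than 1 gene. *Actn*, the alpha-actinin that anchors thin filaments, read 11.30, 11.34 and 11.61 after pinching, 10.99, 11.04 and 11.58 after clean injury and 11.78, 11.82 and 11.89 in untreated larvae. It was called lower after clean injury (-0.63, SE 0.16, adjusted p = 0.035), in 4 of 9 such fits, lost without any 1 of the untreated arrays (-0.65, adjusted p = 0.0917 without replicate 1) or clean injury replicate 1 or 2, and had -0.42 after pinching (adjusted p = 0.152).

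A pair of muscle genes had a called probe set that was not the brightest of its gene. *Msp300*, a nesprin that links muscle nuclei to the cytoskeleton, was lower at 1625210_a_at, by -0.91 after pinching (adjusted p = 0.0346) and -1.05 after clean injury (adjusted p = 0.0184), whereas its brightest probe set averaged 9.70 after pinching, 9.55 after clean injury and 9.63 in untreated larvae. Both calls were lost without untreated replicate 1 (adjusted p = 0.123 and 0.0767) or 3, and they held in 4 and 5 of the 9 fits that left out 1 array. The other arrays that decided them were clean injury replicate 2 for both, pinching replicates 1 and 2 for the first and clean injury replicate 1 for the second. *l(2)efl*, a small heat shock protein, was higher after pinching at 1626416_a_at (0.66, adjusted p = 0.0323), a call that held in 3 of 9 such fits. It was lost without untreated replicate 1 (0.48, adjusted p = 0.087) or 3, clean injury replicate 2 or any of the pinching arrays. The brightest probe set of *l(2)efl* averaged 13.21 after pinching, 13.08 after clean injury and 12.89 in untreated larvae and was not called. Its dimmest averaged 2.61, 2.56 and 2.66. The integrin *if* had -0.50 (adjusted p = 0.0779) and -0.53 (adjusted p = 0.0611), neither past the threshold, though both were under quantile normalization (adjusted p = 0.0355 and 0.0195), and the second also without pinching replicate 1. The co-chaperone *stv* had 0.13 and 0.33, neither called. *Scgdelta* and *Zasp67* were dim, with means under 4, and were not called.

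**Figure D5:**
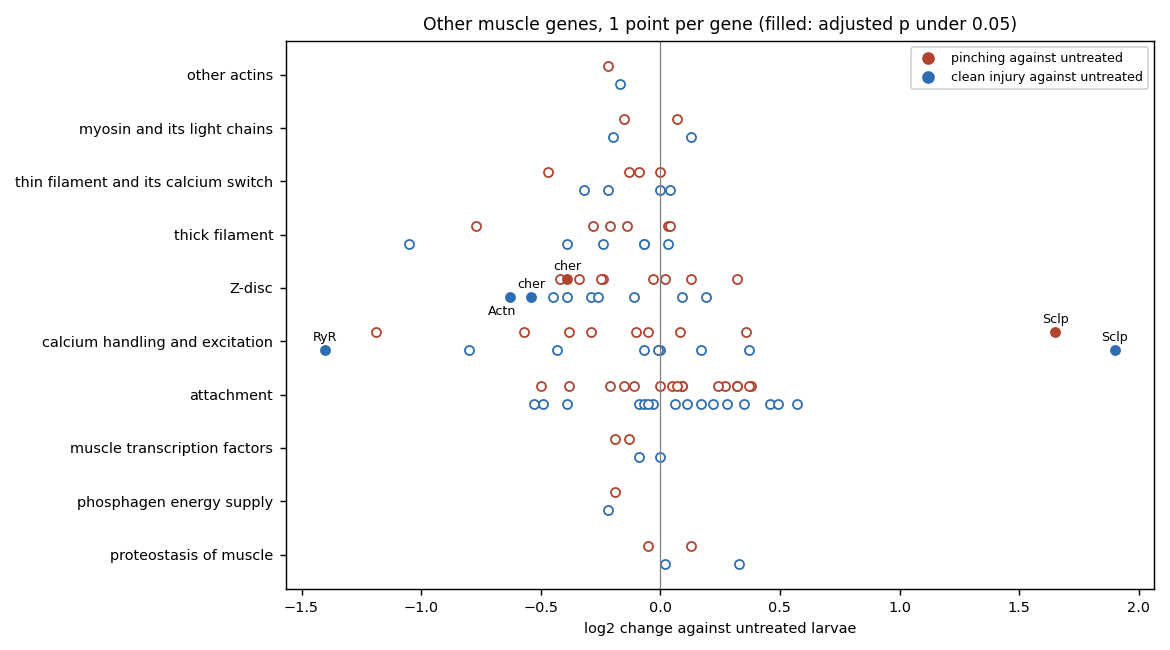
Log2 change against untreated larvae of the 52 further muscle genes, 1 point per gene at its brightest probe set, in rows by function, with pinching above clean injury. Filled points have an adjusted p under 0.05: *Sclp* lies far to the right at 1.65 and 1.90, and *RyR*, *Actn* and *cher* lie to the left.

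With the replicate block the further muscle genes called were 1 higher and 7 lower after pinching, and 4 higher and 10 lower after clean injury. The lower ones included *RyR*, *SERCA*, *if*, *Actn*, *cher* and *Tig* in both comparisons, and obscurin (*Obsc*), a giant thick filament protein, with -0.77 (adjusted p = 0.0138) and -1.05 (adjusted p = 0.00233). The higher gene after pinching was *Sclp*. After clean injury the higher ones were *Sclp* and 3 genes of muscle attachment, the integrin subunits *mys* (0.57, adjusted p = 0.00651) and *mew* (0.46, adjusted p = 0.0129) and the dystrophin gene *Dys* (0.49, adjusted p = 0.00583). These 3 attachment genes were not called without the block, and RNA of whole larvae does not show which tissue their signal came from. The counts with the block after pinching, 1 higher and 7 lower of 52 genes, stand beside 7.6% higher and 8.76% lower over all probe sets. Those after clean injury, 4 higher and 10 lower of 52, stand beside 10.1% higher and 8.58% lower. No share of bright probe sets was taken for the block here either, so nothing particular to muscle is read from these counts. Without the block, 4.21% of all probe sets were higher and 4.99% lower after pinching, and 5.22% higher and 4.93% lower after clean injury. Among the 31 marker genes described above, 1 was lower in that fit after pinching, the tracheal gene *serp* (-0.76, adjusted p = 0.00856), and 0 were higher. Without untreated replicate 1 *serp* was still called (-0.63, adjusted p = 0.033). After clean injury 2 were lower, *serp* (-0.61, adjusted p = 0.0231) and the hemocyte gene *Pxn* (-0.64, adjusted p = 0.0154). The 3 higher were the hemocyte gene *He* (0.99, adjusted p = 0.00462), the gut trypsin *alphaTry* (1.13, adjusted p = 0.0412) and *Ddc* (0.98, adjusted p = 0.0339), which acts in cuticle hardening. Without untreated replicate 1, *He* alone of these 5 was still called after clean injury (1.08, adjusted p = 0.0125), while *serp* had an adjusted p of 0.0822, *Pxn* of 0.0564, *alphaTry* of 0.139 and *Ddc* of 0.131. With the replicate block, 3 of the 31 were called higher (*He*, *Sgs4* and *alphaTry*) and 3 lower (*apolpp*, *serp* and *verm*) after pinching. After clean injury 7 were higher (*Ddc*, *Fbp1*, *He*, *Sgs3*, *Sgs4*, *Sgs5* and *alphaTry*) and 5 lower (*Hml*, *Pxn*, *apolpp*, *serp* and *verm*). These counts stand beside the shares of all probe sets with the block given above. The part of the marker genes in the muscle values was not tested. *RpL32*, a ribosomal protein gene used as a stable reference, had 0.08 in both.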

How the data were processed

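RNA of whole *yw* larvae had been hybridised to 9 Affymetrix Drosophila Genome 2.0 arrays, 3 per group. The authors deposited log2 values, 1 for each probe set on each array. The study's methods name R for the array analysis. The steps of background correction and normalization were not given in the sources used here, and no further scaling was applied. That the scale is log2 was inferred from the range and distribution of the values. Of 18952 probe sets, 183 controls were left out and 18769 tested. Groups came from the sample labels.

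Groups were compared with lmFit, contrasts.fit and eBayes of limma 3.58.1 under R 4.3.3, with a mean per group, two-sided tests, no filter on dim probe sets and Benjamini-Hochberg adjustment over 18769 probe sets. The fit was tested on simulated data. Python 3.11.15 with pandas 2.3.3 and matplotlib 3.10.9 served for summaries and plots. Names came from the platform's annotation, checked by gene identifier against RefSeq (Release 6 plus ISO1 MT), and 0 symbols were updated. The annotation named 1 gene for 13647 probe sets, several for 402 and left 4720 unnamed here.

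The members and lists were chosen with earlier results of these data known. By rule, every member probe set was named, every called gene of the wider list, otherwise its 4 genes with the smallest p per comparison, the 5 genes most like the members and *RpL32*. Probe sets called beside a gene's brightest, and genes called only with the block, were named after their values were seen.

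Deviations of arrays with the same replicate number correlated in all 9 pairs (r from 0.189 to 0.548, against -0.463 to 0.16 for other numbers), so the numbers were taken to pair the arrays. This pairing is inferred from the values, since the labels state none. Deviations within a group sum to 0, so the r for equal numbers and for other numbers are not independent. Alternatives were quantile normalization, centring, leaving out the dimmest 40% of probe sets or those with suffix _s_at or _x_at, a fit to the 6 arrays of a comparison, the methods' t-test, a trended robust prior, the replicate block, averaging the probe sets of a gene, and leaving out each array. The fit to arrays numbered 2 and 3 was added after the data were seen.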

Additional observations from a re-analysis of the deposited data

How the results depend on the processing

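The counts of members called lower depended on the processing. After pinching, where 1 gene was lower, the count was 0 under quantile normalization, with only the 6 arrays compared, with the methods' t-test after Benjamini-Hochberg adjustment, without probe sets of suffix _s_at or _x_at and with arrays numbered 2 and 3 only, and 2 with the replicate block. After clean injury, where 1 was lower, it was 3 under quantile normalization, 2 after centring each array, 4 with the replicate block, and 0 with the methods' t-test, without those suffixes and with arrays numbered 2 and 3 only. Calls over all 18769 probe sets moved too. In the main fit 937 were lower after pinching and 926 after clean injury. These were 1151 and 1214 under quantile normalization, 1106 and 1132 after centring, and 1645 and 1610 with the block. They were 14 and 36 with the methods' t-test after adjustment, and 258 and 220 with arrays numbered 2 and 3 only. With 6 arrays 579 were lower after pinching. Without those suffixes 796 and 793 of 16723 were lower. The methods' t-test at an unadjusted p under 0.05 had 1 member lower after pinching and 3 after clean injury, beside 9.14% and 12.2% of all probe sets. In the wider list, the 1 gene lower after pinching became 2 without dim probe sets and with the trended robust prior, 7 with the block, and 0 with 6 arrays, the methods' t-test, without those suffixes and with arrays numbered 2 and 3 only. Under quantile normalization the count after pinching stayed at 1, but the gene was *if* in place of *cher*. The 3 lower after clean injury became 5 after centring, 10 with the block and 0 with the methods' t-test or arrays numbered 2 and 3 only. The 1 gene higher became 0 in both comparisons with the methods' t-test and with arrays numbered 2 and 3 only, and 4 after clean injury with the block. Over all 18769 probe sets, 790 were higher after pinching and 980 after clean injury in the main fit. These were 25 and 85 with the methods' t-test after adjustment, and 511 and 381 with arrays numbered 2 and 3 only. With the block 1892 were higher after clean injury. In the added fit of arrays numbered 2 and 3, with 2 arrays a group, fewer samples entered. *Act87E* and *cher* each have only a probe set of suffix _s_at, so without those suffixes neither gene could be called. The causes of the other shifts were not tested.

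Leaving out 1 array at a time gave 0 to 1 members higher in both comparisons with untreated larvae, 0 to 1 lower after pinching (1 only without clean injury replicate 1 or pinching replicate 3) and 0 to 2 lower after clean injury (0 when clean injury replicate 1 or untreated replicate 3 was left out, 2 when it was pinching replicate 1, clean injury replicate 3 or untreated replicate 1). The member called higher was *Act79B*, without untreated replicate 2. The wider list had 0 to 1 lower after pinching and 1 to 4 after clean injury. Over all probe sets the number lower after pinching ran from 373 without untreated replicate 3 to 1008 without untreated replicate 2. After clean injury it ran from 327 without clean injury replicate 2 to 1225 without pinching replicate 1. The median log2 change of the members ranged from -0.39 to -0.12 after pinching, from -0.45 to -0.31 after clean injury and from -0.01 to 0.27 for pinching against clean injury. Signs turned only for values that were not called. With arrays numbered 2 and 3, *up* was -0.01 after pinching and -0.21 after clean injury, *sls* 1634102_at was -0.05 after pinching and *Mlp60A* 1629885_at was -0.02 between the injuries. Under quantile normalization *Mlp60A* 1629885_at was 0.05 after pinching. The difference of *Act79B* between the injuries was 0 under quantile normalization and 0.01 after centring.

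With 1 array left out, signs turned after pinching for *up* (-0.31 to 0.51), *sls* 1634102_at (-0.03 to 0.29) and *Mlp60A* 1629885_at (-0.16 to 0.11), and after clean injury for *up* (-0.41 to 0.39) and *sls* 1634102_at (-0.29 to 0.02). Between the injuries they turned for *Act79B* (-0.08 to 0.08), *up* (-0.14 to 0.40), *sls* 1635445_at (-0.17 to 0.32) and *Mlp60A* 1638818_at (-0.05 to 0.17). Among the members the replicate block changed no call other than those given. Signals near the low end of the scale, as for *Act79B*, limit what can be read.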
